A study of Rattus norvegicus with 42 samples.

Results

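The subunits of the mitochondrial oxidative phosphorylation machinery were taken as all genes of the pSer2 Pol2 table whose symbol begins with Ndufa, Ndufb, Ndufc, Ndufs, Ndufv, Uqcr, Cox4, Cox5, Cox6, Cox7, Cox8 or Atp5. This gave 89 gene names with 92 Ensembl identifiers, of 26258 names and 26426 identifiers in all. By prefix alone, 38 of the 89 names were placed in complex I, 8 in complex III, 18 in complex IV and 17 in complex V. Another 8 were Ndufaf assembly factors of complex I that share the Ndufa prefix. A gene so placed need not be a subunit of that complex. Atp5s, named Dmac2l in RefSeq, was counted with complex V but is not one of its subunits. Ndufa10l1, Ndufv3 and Uqcrb had 2 identifiers each, which were kept apart.

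Oxidative phosphorylation makes most of the ATP of a cell. Complex I takes electrons from NADH, complex III passes them to cytochrome c and complex IV hands them to oxygen, and the protons that these complexes pump drive complex V, the ATP synthase. All subunits described here are encoded in the nucleus and imported into mitochondria, and in liver the pathway pays for gluconeogenesis and urea synthesis, processes on which glucocorticoids act.

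The livers came from male Sprague Dawley rats, whose age the labels do not give, all bilaterally adrenalectomised, treated once with dexamethasone after surgery and given corticosterone in the drinking water until the night before the experiment. For 3 h the rats then received corticosterone (CORT) either as hourly pulses of 20 min (PULS) or as a constant infusion (CONS), or vehicle (VEH) delivered in the matching pattern. ChIP-Seq for the glucocorticoid receptor (GR), and for RNA polymerase II phosphorylated at serine 2 of its tail (pSer2 Pol2, the elongating form), was run at 140 min, the end of a pulse (PEAK_140, CONS_140), and at 180 min, before the next pulse (NADIR_180, CONS_180), with 2 libraries per group and 6 rats pooled in each. The VEH group of each ChIP series held 1 library of 140 min and 1 of 180 min, both with pulsatile vehicle, so time and replicate cannot be told apart in it. Total RNA was sequenced at 180 min in 3 libraries per group, the groups being PULS CORT, PULS VEH, CONS CORT and CONS VEH. For these RNA libraries the labels do not say that each came from its own animal, so the p-values measure the spread between libraries, which may in part be technical. The titles of the PULS VEH libraries and of CONS VEH replicate 1 carry higher numbers than those of all other RNA libraries. The labels do not say what these numbers mean. Under PULS, CORT and this numbering cannot be told apart in RNA. In both ChIP series the titles of the PEAK_140 and NADIR_180 libraries carry lower numbers than those of the VEH and CONS libraries. Of these, pSer2 Pol2 PEAK_140 replicate 2 has a number close to those of VEH. When PEAK_140 or NADIR_180 is compared with VEH or CONS, the infusion and this numbering cannot be told apart.

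Deposited totals were 3956379 to 7777219 reads assigned to genes per RNA library (median 5247184), 4938473 to 9326927 tags per pSer2 Pol2 library and 2051977 to 6715803 tags per GR library. Summed hepatocyte markers lay at 95860 to 150600 CPM (counts scaled to library size) in every RNA library, and muscle markers reached at most 0.755. The CORT and VEH ranges of the Kupffer cell, endothelial, cholangiocyte and lymphocyte lists overlapped under both patterns. The 6 stellate markers summed to 442 to 491 CPM in CONS CORT and 529 to 645 in CONS VEH, and the 4 erythroid markers to 318 to 381 in PULS CORT and 173 to 309 in PULS VEH, without overlap. The part of these cells in the results below was not tested, and in whole liver fewer cells of a type and less RNA per cell cannot be told apart. The CONS_140 replicate 1 library of the pSer2 Pol2 series stood apart, with a median of 0.42 log2 above each gene's own mean over all genes.

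Promoter sequences were examined first, since the genes of this pathway are known to share binding motifs for a few nuclear factors. A promoter of 300 bases (250 before the start and 50 after) was found in RefSeq (assembly GRCr8) for 77 genes of the pathway and for 27457 genes in all. The motif of NRF1, searched as GCGC, any base and TGCGC, was present on either strand in 15 of 77 promoters (19.5%, against 4.71% of all promoters), the ETS motif CCGGAAG that GABPA binds in 19 (24.7% against 9.22%) and the YY1 motif AAGATGGC in 16 (20.8% against 3.44%). At least 1 of these 3 motifs was held by 40 of 77 promoters (51.9% against 15.5% of all). By complex, the NRF1 letters were found in 7 of 34 promoters of complex I, 2 of 7 of the assembly factors, 1 of 6 of complex III, none of 14 of complex IV and 5 of 16 of complex V. The SP1 motif GGGCGG was present in 32 (41.6% against 34.9%), the CCAAT box in 27 (35.1% against 37.7%) and the cAMP response element TGACGTCA in 2 (2.6% against 1.91%). The estrogen-related receptor motif TCAAGGTCA was present in 1 (1.3% against 0.412%). A GR response element, searched as GNACA and TGTNC with any 3 bases between, was found in none of 77 and in 0.422% of all promoters, which says only that these letters were not in these windows.

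The 250 bases before the start of 4 genes are shown, 5′ to 3′ on the strand of the gene, with NRF1, ETS and YY1 matches in capitals. Ndufaf4 (chr5:43401545-43401794, plus strand) was the gene of the pathway called in the CORT against VEH comparisons of RNA, and its capitals mark 1 NRF1 match. Ndufb6 (chr5:60206153-60206402, minus strand) had an adjusted p below 0.05 under PULS with a change under 1.5-fold, and Atp5f1b (chr7:1099808-1100057, plus strand) encodes the catalytic beta subunit of complex V, and neither holds a match. Ndufa13 (chr16:19560276-19560525, plus strand) had the GR region closest to its start, and its capitals mark 2 ETS matches, the first on the opposite strand. These coordinates are on GRCr8, whereas those of the ChIP regions are on rn6.

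Ndufaf4: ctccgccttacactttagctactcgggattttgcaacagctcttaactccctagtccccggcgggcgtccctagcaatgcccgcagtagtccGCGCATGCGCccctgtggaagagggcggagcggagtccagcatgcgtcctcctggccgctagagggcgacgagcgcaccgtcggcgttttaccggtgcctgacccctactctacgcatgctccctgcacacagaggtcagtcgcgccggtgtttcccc
Ndufb6: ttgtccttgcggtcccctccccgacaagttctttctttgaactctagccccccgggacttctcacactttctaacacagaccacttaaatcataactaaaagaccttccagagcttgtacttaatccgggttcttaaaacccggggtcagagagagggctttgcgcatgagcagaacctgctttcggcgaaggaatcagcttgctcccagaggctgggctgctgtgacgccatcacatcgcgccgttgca
Ndufa13: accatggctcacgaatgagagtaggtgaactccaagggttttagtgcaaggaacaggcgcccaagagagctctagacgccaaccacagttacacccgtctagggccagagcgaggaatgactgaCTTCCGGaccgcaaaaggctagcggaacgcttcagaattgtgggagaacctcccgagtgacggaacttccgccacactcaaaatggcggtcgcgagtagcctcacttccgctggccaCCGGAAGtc
Atp5f1b: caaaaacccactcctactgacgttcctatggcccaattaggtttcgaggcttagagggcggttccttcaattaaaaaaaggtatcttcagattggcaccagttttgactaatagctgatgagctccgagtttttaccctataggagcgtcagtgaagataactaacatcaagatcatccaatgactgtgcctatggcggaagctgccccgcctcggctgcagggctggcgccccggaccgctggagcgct

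In the RNA data, 88 of the 92 identifiers had a row and 76 passed the filter of more than 10 reads over the 12 libraries (35 of complex I, 8 assembly factors, 8 of complex III, 10 of complex IV and 15 of complex V). Summed over these 76 genes, the pathway took 5624, 5771 and 6155 CPM in the CONS CORT libraries, 5659, 6508 and 7114 in CONS VEH, 6327, 6610 and 5719 in PULS CORT and 5589, 5397 and 5790 in PULS VEH. The CORT and VEH ranges overlapped within both patterns, with means of 6219 ± 455 against 5592 ± 197 for PULS and 5850 ± 274 against 6427 ± 731 for CONS (SD, n = 3). Of the summed reads, 44.9% fell on complex V, 34.1% on complex I, 10.5% on complex IV, 8.89% on complex III and 1.63% on the assembly factors. These are shares of reads, which also depend on transcript length.

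**Figure D1:**
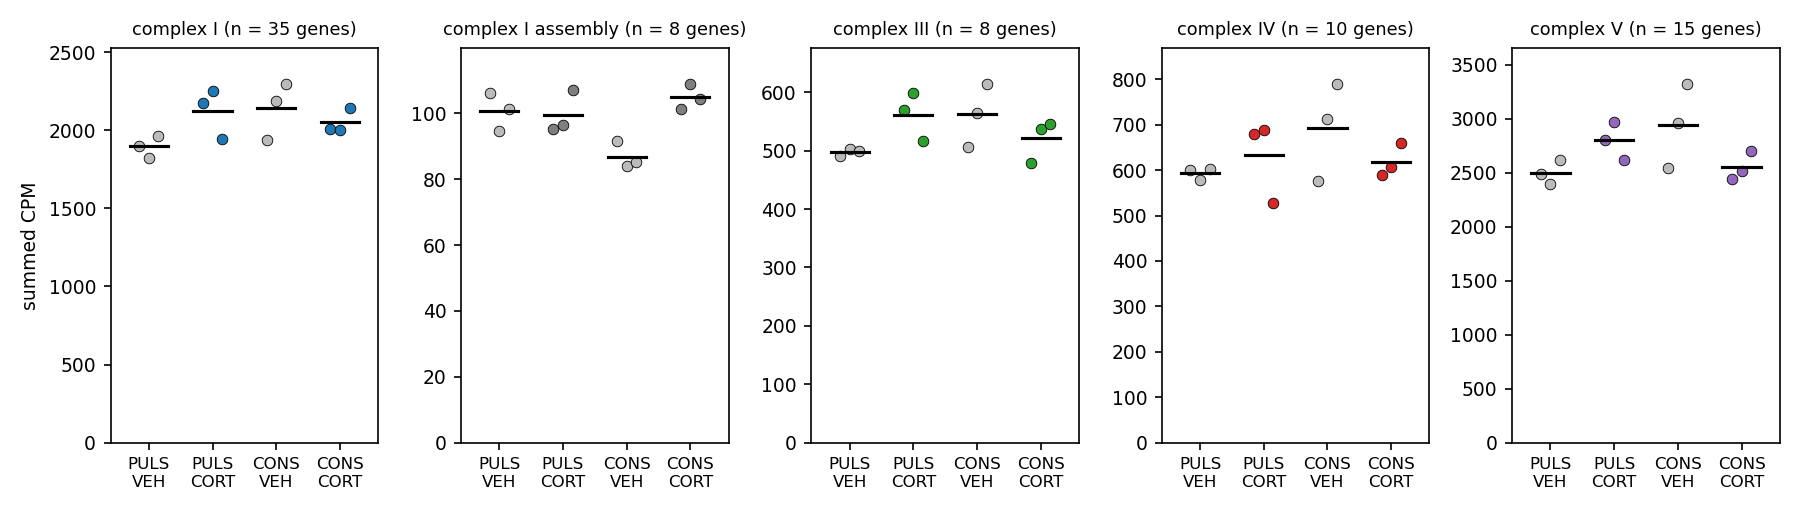
Summed CPM (y axis, from 0) of the tested genes of each complex in every RNA library, with 3 libraries per group as points and the group mean as a line; VEH libraries are grey. CORT and VEH libraries overlapped in each panel and pattern but for the assembly factors under CONS (101.2, 109 and 104.4 CPM against 91.5, 84.0 and 85.1), complex III under PULS (569.8, 598.1 and 517.2 against 491.5, 502.9 and 499.9) and complex V under PULS (2807, 2976 and 2624 against 2487, 2400 and 2622).

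Ndufaf4, an assembly factor needed early in the building of complex I, was the 1 gene of the pathway called higher with CORT, under both patterns. Its level was 7.13, 4.69 and 6.93 CPM in the PULS CORT libraries and 3.44, 2.45 and 2.28 CPM in PULS VEH. Under CONS it was 5.48, 5.23 and 6.45 CPM with CORT and 2.95, 3.30 and 2.17 CPM with VEH. In both patterns each CORT library lay above each VEH library. These levels rest on 11 to 37 reads per library.

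The log2 fold change of Ndufaf4 was 1.19 (SE 0.27, edgeR adjusted p = 0.0162) under PULS and 1.02 (SE 0.26, adjusted p = 0.0142) under CONS, and the difference between the patterns was -0.17 (adjusted p = 0.90). It was the 1 gene of the pathway called in either comparison, where a call needs an adjusted p below 0.05 over all 14092 genes and a change above 1.5-fold. Thus 1 of 76 genes was called higher under each pattern, a share no larger than that of all genes. Over all genes 1.79% were called higher and 2.44% lower under PULS, and 4.45% higher and 4.75% lower under CONS. The call depended on single libraries, since under PULS the adjusted p became 0.0746 without PULS CORT replicate 1, 0.0525 without PULS CORT replicate 3, 0.0609 without PULS VEH replicate 2 and 0.0594 without PULS VEH replicate 3. Under CONS it became 0.0597 without CONS CORT replicate 3 and 0.0648 without CONS VEH replicate 3, and the log2 fold change stayed between 0.88 and 1.402 throughout.

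No difference at Ndufaf4 was called in the chromatin data. Over its region (chr5:39251337-39257512, rn6) the pSer2 Pol2 value on the log2 scale was 3.16 and 3.10 in VEH, 3.10 and 3.495 at PEAK_140, 3.34 and 3.10 at NADIR_180, 3.61 and 3.10 at CONS_140 and 3.395 and 3.17 at CONS_180. The groups overlapped, and 4 of the 10 libraries shared its lowest value within 0.02. No GR region lay within 50 kb of Ndufaf4, and the nearest was 5243 kb away.

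**Figure D2:**
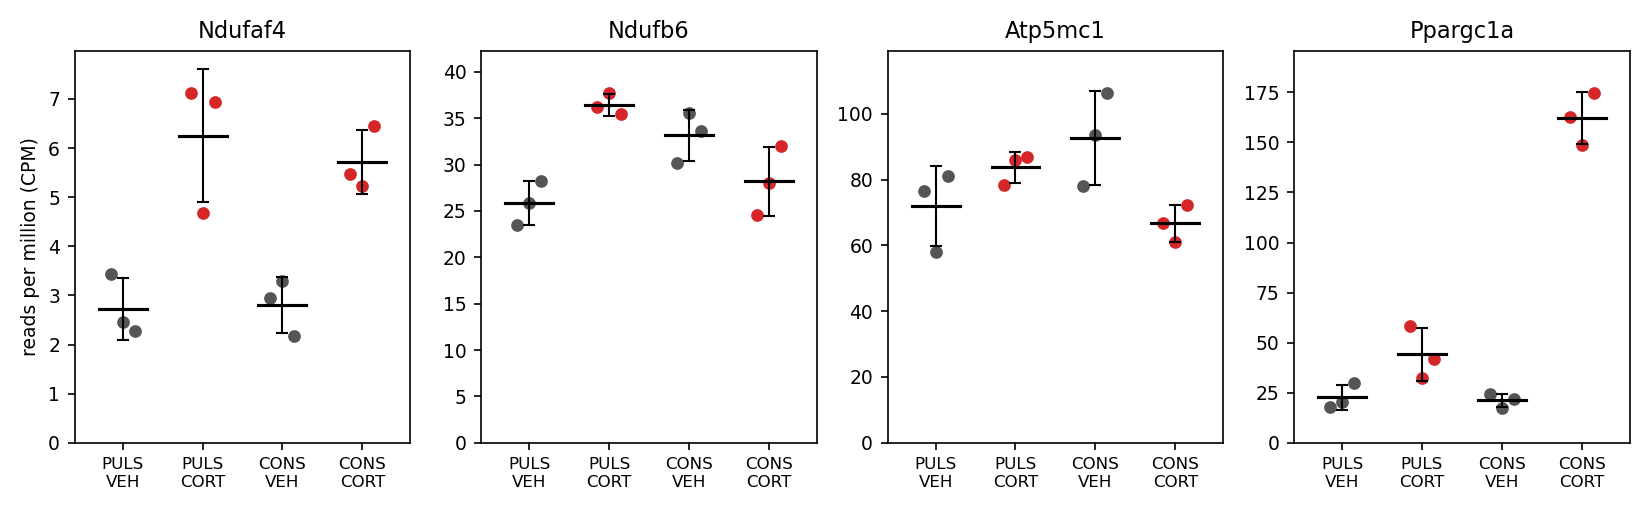
CPM (y axis, from 0) in each RNA library for Ndufaf4, Ndufb6, Atp5mc1 and the coactivator gene Ppargc1a, with the mean and SD of 3 libraries. Each CORT library lies above each VEH library for Ndufaf4 and Ppargc1a under both patterns, whereas Ndufb6 is higher with CORT under PULS and Atp5mc1 is lower with CORT under CONS.

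Ndufb6 and Atp5mc1 had an adjusted p below 0.05 with a change under 1.5-fold, each in 1 pattern. Ndufb6, an accessory subunit of complex I, stood at 36.2, 37.7 and 35.4 CPM in PULS CORT and at 23.5, 25.9 and 28.2 CPM in PULS VEH, a log2 difference of 0.50 (SE 0.13, edgeR adjusted p = 0.0326). Under CONS it stood at 24.6, 27.96 and 32.1 CPM with CORT and at 30.1, 35.6 and 33.7 CPM with VEH, where the ranges overlapped. The pSer2 Pol2 region of Ndufb6 overlaps that of Topors, and the sources used here do not state whether counting used strand, so its reads are uncertain.

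Atp5mc1 is among the genes for subunit c, which forms the membrane ring of complex V. It stood at 66.7, 61.0 and 72.3 CPM in CONS CORT and at 78.0, 93.7 and 106.4 CPM in CONS VEH, a log2 difference of -0.47 (SE 0.14, edgeR adjusted p = 0.0365). Under PULS its CORT values of 78.4, 86.1 and 86.9 CPM overlapped the VEH values of 76.5, 58.1 and 81.1 CPM. The other subunit c genes lay lower by less, with log2 differences under CONS of -0.23 for Atp5mc2 and -0.21 for Atp5mc3, neither called.

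The difference between the CONS and PULS responses was tested directly, and none of the 76 genes was called by edgeR (14 had an unadjusted p below 0.05). Over all genes 0.0071% were called higher and 0.0213% lower in this test. DESeq2 called 2 of the 76, Ndufb6 (log2 difference -0.73, DESeq2 adjusted p = 0.0364) and Atp5mc1 (-0.70, DESeq2 adjusted p = 0.0471), in a fit that called 98 of all genes higher (0.695%) and 117 lower (0.83%). Without CONS VEH replicate 1, edgeR called 3 of 75 lower, Atp5mc1 (-0.81), Atp5po (-0.65) and Ndufb6 (-0.80), beside 1.26% of all genes called higher and 0.812% lower. In CONS CORT against CONS VEH it then also called Ndufaf2 (0.61) higher and Atp5mc1 (-0.59) lower, beside 4.63% of all genes higher and 4.15% lower.

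As a group the genes of the pathway lay slightly to opposite sides of zero under the 2 patterns. Under PULS, 61 of 76 had a higher mean with CORT, with a median log2 difference of 0.13 (0.08 to 0.21 when any 1 RNA library was left out), against 48.5% of all genes and a median of -0.01. Under CONS, 24 of 76 had a higher mean with CORT, with a median of -0.09 (-0.16 to -0.05 with 1 library left out), against 49.1% of all genes and a median of -0.01. All 3 PULS CORT values lay above all 3 PULS VEH values for 20 of the 76 genes (26.3%) and below them for 1, whereas over all genes tested the shares were 12.2% and 12.8%. Under CONS the values did not overlap for 3 genes above and 5 below, against 14.5% and 14.8% of all genes, and 4.45% called higher and 4.75% called lower.

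The markers of 2 other cell types lay to the same sides, and those of the other lists did not. The median log2 difference of the 6 Kupffer cell or macrophage markers was 0.19 under PULS (5 higher) and -0.17 under CONS (1 higher), and that of the 4 erythroid markers was 0.47 (4 higher) and -0.22 (1 higher). For the difference between the responses the medians were -0.36 and -0.63, and for PULS VEH against CONS VEH they were -0.21 and -0.38. No gene of either list was called by edgeR in these comparisons, and the part of these cells in the medians of the pathway was not tested. For the other lists the medians under PULS and CONS were 0.07 and 0.34 (hepatocyte), -0.04 and 0.12 (endothelial) and -0.19 and -0.29 (stellate). They were -0.20 and 0.02 (cholangiocyte), -0.25 and -0.42 (lymphocyte) and -0.24 and -0.53 (muscle, 1 gene tested).

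The medians of the 4 complexes had 1 sign under each pattern, which the 8 Ndufaf assembly factors did not share. Under PULS the median log2 difference was 0.17 in complex I (30 of 35 higher), 0.20 in complex III (8 of 8), 0.08 in complex IV (6 of 10) and 0.12 in complex V (13 of 15), and -0.04 among the assembly factors (4 of 8). Under CONS the medians were -0.06 in complex I (13 of 35 higher), -0.10 in complex III (1 of 8), -0.10 in complex IV (4 of 10) and -0.21 in complex V (0 of 15), and 0.28 among the assembly factors (6 of 8). The order of complexes was not tested, and genes of 1 pathway read in the same libraries are not independent.

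The vehicle groups were compared in the same way. In PULS VEH against CONS VEH none of the 76 was called by edgeR (9 had an unadjusted p below 0.05) and none by DESeq2, and 0% of all 14092 genes were called. Of the 76 genes, 69 had a lower mean in PULS VEH, with a median log2 difference of -0.17 (-0.24 to -0.12 with 1 library left out) against 0.01 over all genes, and the 3 values of each group did not overlap for 14 genes below and 2 above (18.4% and 2.63%, against 7.22% and 6.45% of all genes). All 15 genes of complex V and all 8 of complex III had the lower mean in PULS VEH, as did 34 of 35 of complex I and 9 of 10 of complex IV, against 3 of 8 assembly factors. Because these same VEH libraries are the reference of the PULS and CONS comparisons, the opposite medians above are not independent of it. Per library, the median deviation of the 76 genes from their own means was -0.10, -0.15 and -0.03 in PULS VEH. In CONS VEH replicates 1, 2 and 3 it was -0.09, 0.12 and 0.18. CONS VEH replicate 1, which shares the higher title numbers, thus lay on the side of PULS VEH. The part of this numbering in the medians was not tested. For CONS CORT against PULS CORT the median was -0.07 (-0.12 to -0.01 with 1 library left out), with 24 of 76 higher and no gene called by edgeR (3 at an unadjusted p below 0.05) or DESeq2, beside 0.617% of all genes called higher and 0.27% lower.

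**Figure D3:**
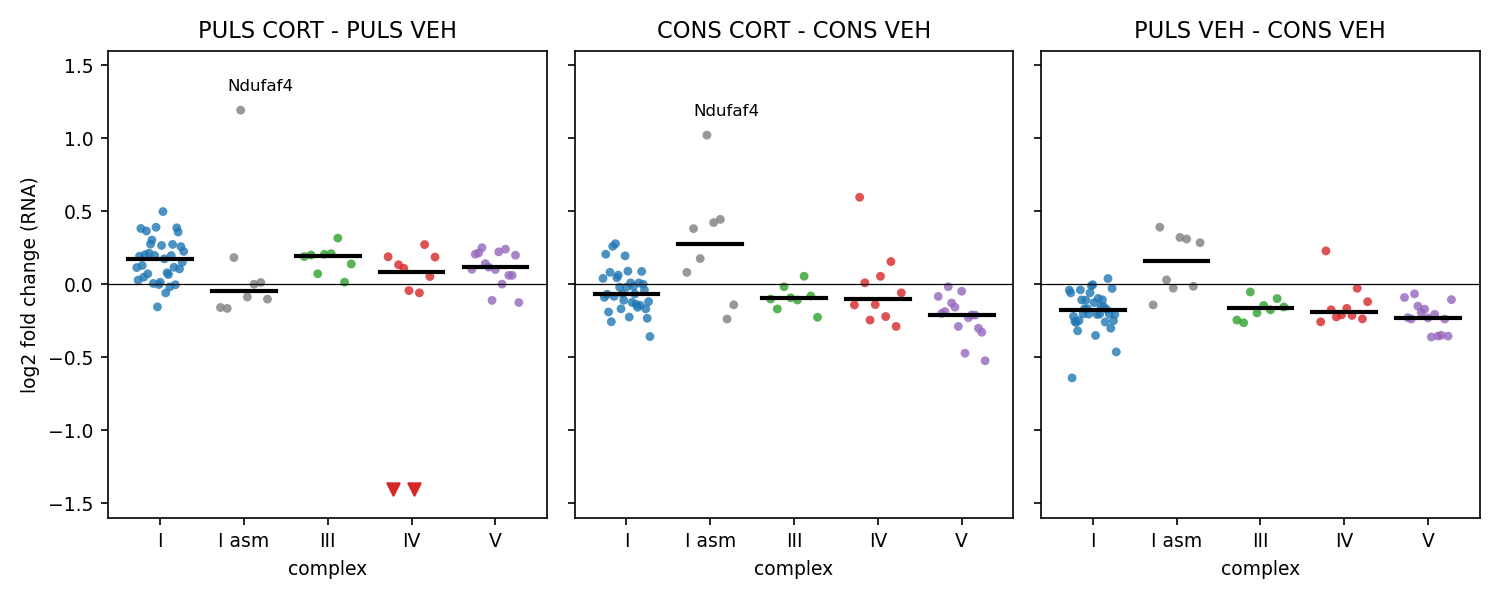
Log2 fold changes in RNA (y axis) of the 76 tested genes by complex, for CORT against VEH under PULS and CONS and for the 2 vehicle groups, with a point per gene and a line at the median of each complex; triangles are 2 genes beyond the axis, Cox4i2 at -3.60 and Cox6b2 at -3.22, which have 14 and 11 reads in all and 0 in PULS CORT, so that these fitted values are no bound. The points of complexes I, III, IV and V lie mostly above 0 in the PULS panel and mostly below 0 in the others, and Ndufaf4 is the called gene.

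In complex I, Ndufv3 (ENSRNOG00000001182 of its 2 identifiers throughout), a small subunit beside the NADH site, stood at 32.1, 36.3 and 43.0 CPM in CONS CORT and 39.9, 52.5 and 51.2 CPM in CONS VEH (log2 difference -0.36, SE 0.14, edgeR adjusted p = 0.125). It had the lowest p of complex I under CONS, with overlapping values.

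Among the assembly factors other than Ndufaf4, Ndufaf2, which binds late intermediates of complex I, had 35.7, 40.0 and 38.5 CPM in CONS CORT and 37.2, 23.96 and 25.7 CPM in CONS VEH (log2 difference 0.38, SE 0.16, edgeR adjusted p = 0.15). Ndufaf6 showed no overlap, at 12.4, 12 and 13.8 CPM against 9.59, 8.13 and 10.1 CPM, with a log2 difference of 0.44 (SE 0.16, edgeR adjusted p = 0.0921). Under PULS both had overlapping values, with log2 differences of -0.17 for Ndufaf2 and 0.00 for Ndufaf6.

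In complex III, Uqcrfs1, the Rieske iron-sulphur protein, stood at 19.6, 21.0 and 20.8 CPM in PULS CORT and at 16.3, 16.2 and 16.8 CPM in PULS VEH (log2 difference 0.32, SE 0.14, edgeR adjusted p = 0.236). The core protein gene Uqcrc2 stood at 179.1, 191.2 and 199.8 CPM against 162.0, 163.4 and 168.0 CPM (log2 difference 0.21, edgeR adjusted p = 0.309). Both sets of values were free of overlap, and under CONS the differences were 0.06 and -0.11. Uqcrc1, the other core protein, gave 0.21 and -0.09, with overlapping values under both patterns.

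In complex IV, Cox4i1, the main liver form of subunit 4, stood at 194.9, 216.3 and 170.6 CPM in PULS CORT and at 169.6, 175.3 and 166.2 CPM in PULS VEH, which overlap. Cox7a2l, which joins complexes III and IV, stood at 25.6, 29.6 and 26.3 CPM against 22.4, 23.4 and 21.6 CPM, without overlap (log2 difference 0.27, SE 0.13, edgeR adjusted p = 0.261). Cox6c, an abundant small subunit, gave log2 differences of -0.06 under PULS and -0.22 under CONS. Cox7c had the lowest p of complex IV under CONS, with a log2 difference of -0.29 (edgeR adjusted p = 0.296) and overlapping values.

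In complex V, Atp5f1b stood at 958.8, 1055 and 987 CPM in PULS CORT and at 856, 843.8 and 889.3 CPM in PULS VEH, without overlap (log2 difference 0.21, SE 0.12, edgeR adjusted p = 0.341). Its values of 862.9, 876.8 and 947 CPM in CONS CORT overlapped the 881.4, 1008 and 1170 CPM of CONS VEH (log2 difference -0.19, edgeR adjusted p = 0.366). Atp5f1a, the alpha subunit, gave 0.21 and -0.20 in the 2 patterns, and Atp5po, the stalk protein that ties the head to the membrane part, gave 0.20 and -0.33 (edgeR adjusted p = 0.102 under CONS).

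Ndufab1, the acyl carrier protein that also sits in complex I, gave 0.01 under PULS and -0.02 under CONS. Of the genes with a tissue counterpart, the widely used forms Cox6b1 and Cox8a were read at 39.4 to 68.1 and 15.9 to 24.1 CPM, with log2 differences between -0.14 and 0.19. Cox4i2 and Cox6b2, the forms of lung and of testis, had 14 and 11 reads over the 12 libraries.

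Some genes of the pathway could not be measured. Ndufa1, Ndufs6, Cox6a1, Cox6a2, Cox7a2l2, Cox7b, Cox8c, Atp5pb and Atp5pf were listed at 0 reads in all 12 RNA libraries, and Ndufa4l2, Cox7a1 and Cox8b had 7, 1 and 6 reads in all. Several of these encode subunits that every cell with mitochondria uses, so a count of 0 here says only how the gene is listed. The identifier listed as Ndufs6 is typed as a processed pseudogene in the deposited annotation. The pSer2 Pol2 level over Cox6a1, Cox7b and Atp5pf lay at percentiles 82.4, 76.4 and 77.4 of all genes in that table, that of Ndufs6 at 7.06. The isoforms of heart and muscle (Cox6a2, Cox7a1, Cox8b) and of testis (Cox8c) were among the genes with few or no reads.

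Elongating polymerase was described over 87 identifiers with values that varied between libraries, each by its region of up to 10 kb from the start. No gene of the pathway was called by limma in any of 9 comparisons. The share of all 16568 genes called higher and lower was 0.368% and 0.585% at PEAK_140, 0% and 0.00604% at NADIR_180, 0.622% and 0.169% at CONS_140 and 0.175% and 0.0543% at CONS_180, each against VEH. For PEAK_140 against NADIR_180 it was 0.254% and 0.211%, for CONS_140 against CONS_180 0% and 0%, for PEAK_140 against CONS_140 0.00604% and 0.0121%, for CONS_180 against NADIR_180 0.163% and 0.00604%, and for the difference of the 2 time courses 0.0362% and 0.0181%. Shares this low leave little room for calls among 87 genes. Scaling moved the split of calls over all genes, since of those called at CONS_140 against VEH 78.6% were higher as deposited, 64.8% with centred libraries and 50.5% under quantile normalization, and for PEAK_140 against VEH these shares were 38.6%, 40.6% and 48.9%. At an unadjusted p below 0.05, limma counted 0 genes of the pathway for PEAK_140, 1 for NADIR_180, 5 for CONS_140 and 2 for CONS_180 against VEH, 3 for PEAK_140 against NADIR_180, 1 for CONS_140 against CONS_180, 10 for PEAK_140 against CONS_140, 0 for CONS_180 against NADIR_180 and 4 for the time courses.

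The median log2 difference of the 87 from VEH was -0.07 for PEAK_140 (31 higher), 0.15 for NADIR_180 (71 higher), 0.32 at CONS_140 (79 higher) and 0.05 at CONS_180 (55 higher), beside medians of -0.05, 0.01, 0.15 and 0.01 over all genes. When any 1 library was left out these medians ranged from -0.25 to 0.05 for PEAK_140, -0.00 to 0.35 for NADIR_180, -0.00 to 0.67 at CONS_140 and -0.09 to 0.26 at CONS_180. These 4 comparisons share the VEH libraries, and the sign at PEAK_140 turned with the scaling, to 0.02 with centred libraries and 0.12 under quantile normalization. Between PEAK_140 and NADIR_180 the median was -0.21 with 14 of 87 higher at the peak, beside -0.08 over all genes, and with libraries centred it was -0.11, but under quantile normalization it was 0.07. The CONS_140 difference rested on 1 library, because 86 of 87 genes lay above their own mean in CONS_140 replicate 1, and the median was -0.00 without that replicate and 0.67 without CONS_140 replicate 2, when 6 of 87 were called higher (6.9%, against 14.3% of all genes). Such fits take the spread of the lone library left in a group from the other groups. For PEAK_140 against CONS_140 the median was -0.36, beside -0.25 over all genes, and it was -0.01 without CONS_140 replicate 1, -0.73 with 12 called lower (13.8%, against 22% of all genes) without CONS_140 replicate 2, and 0.06 under quantile normalization. With the replicate number as a block, since the same-numbered CORT libraries deviated together, 4 of 87 genes (4.6%, against 1.82% of all genes) were called lower at PEAK_140 than at CONS_140, namely Ndufv3 (-1.66, limma adjusted p = 0.0365), Atp5mc2 (-1.43, 0.0426), Atp5mg (-1.41, 0.0381) and Atp5f1d (-1.38, 0.0401). That pairing was read from these same data and is not given by the labels, so these calls depend on it.

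**Figure D4:**
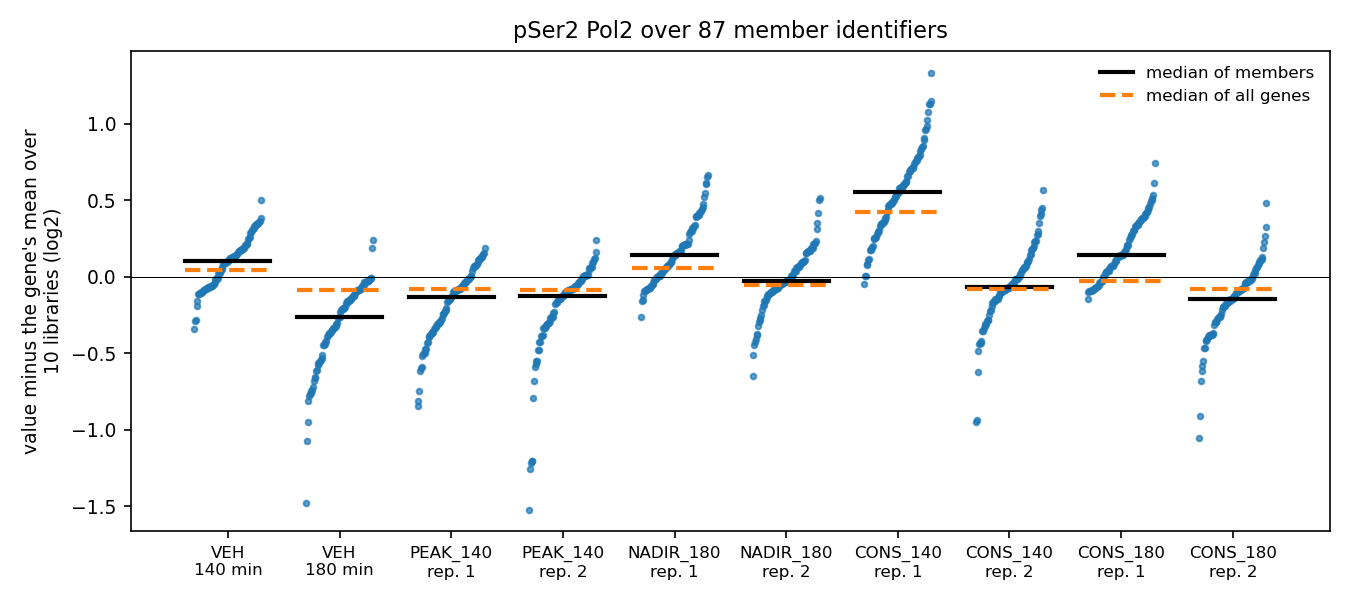
For each of the 10 pSer2 Pol2 libraries, the value of each of the 87 identifiers minus its own mean over the libraries (y axis, log2), as points sorted by size, with the median of the members (black) and of all genes (dashed). CONS_140 replicate 1 has a median of 0.55 over the pathway against 0.42 over all genes, and the VEH library of 180 min the lowest median of the pathway, -0.26 against -0.09.

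Ndufv3 had the lowest p at PEAK_140 against VEH and against CONS_140. Its pSer2 Pol2 value (chr20:10265806-10275304, rn6) was 5.86 and 5.73 in VEH, 5.47 and 4.38 at PEAK_140, 6.33 and 5.79 at NADIR_180, 6.98 and 6.18 at CONS_140 and 6.33 and 5.98 at CONS_180. Both PEAK_140 libraries lay below all others, but the difference from VEH was -0.87 (SE 0.43) and that from CONS_140 missed the threshold without the block (-1.66, SE 0.43, limma adjusted p = 0.189).

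Ndufb9, an accessory subunit of complex I, had the lowest p of these genes in CONS_140 against VEH. Its pSer2 Pol2 value (chr7:98813040-98819452, rn6) was 7.04 and 5.90 in VEH, 6.99 and 7.08 at PEAK_140, 7.80 and 7.88 at NADIR_180, 8.10 and 7.95 at CONS_140 and 7.63 and 7.44 at CONS_180. All libraries at NADIR_180, CONS_140 and CONS_180 lay above both VEH libraries. The difference from VEH was 1.55 (SE 0.38, limma adjusted p = 0.143) at CONS_140, 1.37 at NADIR_180 and 1.07 at CONS_180. None of these was called, and the result at CONS_140 moved when single libraries were left out. There the difference was 2.12 (limma adjusted p = 0.0420) without the VEH library of 140 min and 0.98 (adjusted p = 0.516) without that of 180 min, each leaving VEH with a lone library, and 1.63 (adjusted p = 0.0498) without CONS_140 replicate 2. In RNA, Ndufb9 gave log2 differences of 0.08 under PULS and -0.02 under CONS.

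Ndufs7, a core iron-sulphur subunit of complex I, had the highest mean pSer2 Pol2 value among these genes. It stood at 9.24 and 8.68 in VEH, 9.35 and 8.97 at PEAK_140, 9.23 and 9.16 at NADIR_180, 10.50 and 9.76 at CONS_140 and 9.65 and 8.96 at CONS_180. Both CONS_140 libraries lay above all others, with a difference of 1.17 from VEH (SE 0.37, limma adjusted p = 0.351). For 12 of the 87 genes the lowest value recurred (within 0.02) in 5 or more of the 10 libraries, among them the assembly factors Ndufaf1, Ndufaf2, Ndufaf5 and Ndufaf6. The differences of such genes rest on the few libraries above it. Ndufaf1, Ndufaf5 and Ndufaf6 were among the genes called when CONS_140 replicate 2 was left out, and those calls share this limit.

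Within 50 kb, GR regions lay near these genes about as often as near all genes. A GR region had its centre within 50 kb of a start for 16 of 92 identifiers (17.4%), against 4457 of 26426 (16.9%) of all genes. Within 10 kb the shares were 5.43% and 5.53%, and within 100 kb 34.8% and 27.1%. The median distance from a start to the nearest GR region was 183.2 kb for the pathway and 269.9 kb for all genes. The 16 genes had 26 regions, of which 11 were intergenic, 9 in introns, 3 in exons, 2 at promoters and 1 at a transcript end, and for only 2 of the 26 (at Ndufa7 and Ndufb3) was the gene of the pathway also the nearest gene in the deposited annotation. For the rest the nearest gene was another one, such as Leap2 beside Uqcrq, Thrsp beside Ndufc2, or Sesn2 beside Atp5if1.

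GR values at the 26 regions were lowest in VEH and highest at PEAK_140 and under CONS. The median of their group means was -0.67 on the log2 scale in VEH, 3.64 at PEAK_140 and 0.49 at NADIR_180, with 3.38 in each CONS group. Against VEH, 21 of 26 rose at PEAK_140 (78.6% of all 3981 regions did), 5 at NADIR_180 (7.44%), 20 at CONS_140 (64.7%) and 17 at CONS_180 (67.9%). In the same order the regions had median log2 differences of 4.43, 0.94, 3.53 and 3.66, near those of all regions, 4.17, 0.84, 3.38 and 3.46. From NADIR_180, 19 of 26 were higher at PEAK_140 (68.8% of all regions) and 14 were higher at CONS_180 (49.6%), while none was called between CONS_140 and CONS_180 (0% of all regions, and 0 of 26 at an unadjusted p below 0.05) or between PEAK_140 and CONS_140 (0.0251% in each direction, and 3 of 26 at an unadjusted p below 0.05). The fall over time exceeded that of CONS for 10 of 26 regions (43.6% of all regions). The regions had been found by their GR signal in these libraries, so that they bind GR is no finding here, and when each library was centred on its own median the medians of the 26 regions against VEH turned to values between -0.58 and -0.19, beside -0.73 to -0.34 for all regions. Of all regions called at PEAK_140 against VEH, 97.7% were higher as deposited, 19.3% with centred libraries and 55.2% under quantile normalization. The 5 calls at NADIR_180 became 0 with centred libraries, under quantile normalization or with only the compared libraries in the fit, and none of the 26 regions was marked as enriched for NADIR_180 in the deposited table (1.81% of all regions were). They became 2 without the VEH library of 180 min and 8 without NADIR_180 replicate 2, whose median over the 26 regions was -0.43 where replicate 1 had 1.27. The 14 calls of CONS_180 against NADIR_180 became 6 without either CONS_180 library and 8 without NADIR_180 replicate 2. The 10 regions of the time comparison became 3 without PEAK_140 replicate 1 or CONS_180 replicate 1, 5 without CONS_180 replicate 2 and 6 without CONS_140 replicate 2.

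**Figure D5:**
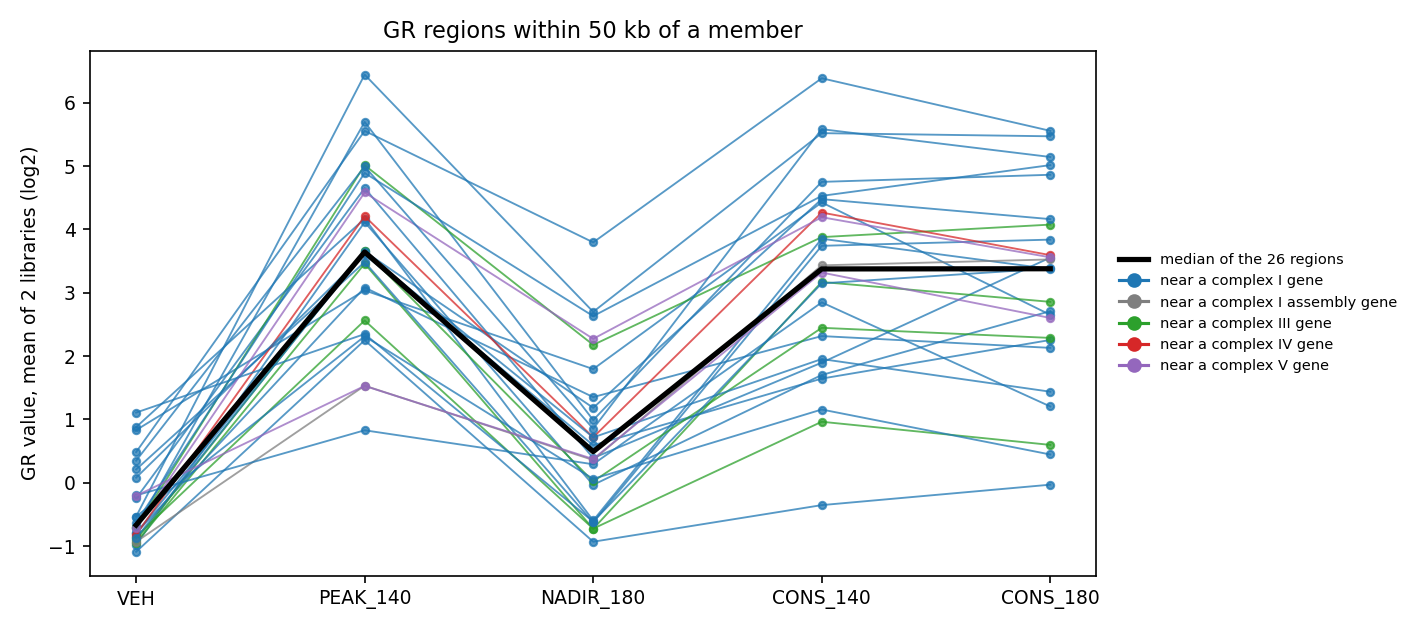
GR values (y axis, log2, mean of 2 libraries) of the 26 regions within 50 kb of a gene of the pathway in the 5 groups (x axis), a line per region coloured by complex, with the median in black. The median is lowest in VEH (-0.67), then in NADIR_180 (0.49), and lies at 3.38 in both CONS groups and 3.64 in PEAK_140.

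The region downstream of Ndufb3, a membrane subunit of complex I, was the one with the largest difference among the 26 (chr9:65498505-65499177, rn6, intergenic, 20345 bases from the start). Its GR value was -0.43 and -0.63 in VEH, 6.55 and 6.33 at PEAK_140, 2.03 and 3.37 at NADIR_180, 5.66 and 5.38 at CONS_140 and 5.44 and 5.50 at CONS_180. Both NADIR_180 libraries lay between VEH and the other groups, with log2 differences from VEH of 6.97 at PEAK_140 (limma adjusted p = 2.1e-05) and 3.23 at NADIR_180 (adjusted p = 0.00732). Ndufb3 RNA differed by -0.00 under PULS and 0.19 under CONS.

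The region in an intron of Ndufa7, 4309 bases from its start (chr7:18687665-18688060, rn6), stood at -0.89 and -1.06 in VEH, 4.29 and 3.94 at PEAK_140, 0.61 and -0.68 at NADIR_180, 1.47 and 1.93 at CONS_140 and 2.72 and 2.69 at CONS_180. It was called at PEAK_140 (5.09, limma adjusted p = 0.000235), CONS_140 (2.68, 0.00762) and CONS_180 (3.69, 0.00168) but not at NADIR_180 (0.95, 0.52). Both PEAK_140 libraries lay above all others. Ndufa7, a small subunit of the matrix arm, had RNA differences of 0.21 under PULS and 0.28 under CONS, neither called.

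The region closest to a start lay 1642 bases upstream of Ndufa13 (chr16:21273406-21273933, rn6), in an exon and nearer to Tssk6. Ndufa13 encodes a membrane subunit of complex I that is also known as GRIM-19, and its promoter, printed above, held 2 ETS matches. The GR value was -0.62 and 2.28 in VEH, 2.53 and 3.54 at PEAK_140, 2.61 and 0.98 at NADIR_180, 4.97 and 3.88 at CONS_140 and 2.60 and 2.70 at CONS_180. It was called at CONS_140 alone (3.59, SE 1.02, limma adjusted p = 0.0129), the VEH libraries lay far apart, and its PEAK_140 difference was 2.21 (adjusted p = 0.072). In RNA, Ndufa13 stood at 63.2, 57.2 and 59.2 CPM in PULS CORT and at 49.4, 43.2 and 45.4 CPM in PULS VEH, without overlap (log2 difference 0.38, SE 0.12, edgeR adjusted p = 0.0753), and under CONS the difference was -0.07.

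The 5 regions that also rose at NADIR_180 in the fit over all groups were those of Ndufb3, of Uqcrq at 7901 bases (2.88, limma adjusted p = 0.0177), of Ndufs7 at 20439 bases (3.31, 0.0202), of Ndufa4l2 at 22911 bases upstream (3.26, 0.00521) and of Atp5if1 at 39325 bases (2.98, 0.0129). The Uqcrq region (chr10:38774206-38774831, rn6) is the promoter of Leap2 in the deposited annotation, and its group means were -0.70 in VEH, 5.01 in PEAK_140, 2.18 in NADIR_180, 3.88 in CONS_140 and 4.08 in CONS_180. Uqcrq, a small subunit of complex III, gave RNA log2 differences of 0.14 under PULS and -0.23 under CONS, neither called.

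Other genes with a region were Ndufc2 with 4, all nearest to Thrsp, Ndufa6, Ndufa11, Ndufb2, Ndufs8, Ndufaf3, Cox7a2l2 and Uqcrb. Of these regions, that at Ndufa6 (nearest gene Cyp2d4) was called in no comparison with VEH, and that at Ndufa11 at CONS_140 alone. Complex V had its 2 regions near Atp5if1, the inhibitor of its ATP hydrolysis, whose RNA log2 differences were 0.10 under PULS and -0.05 under CONS.

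Other genes of the respiratory chain were counted from lists of genes with known roles. The lists were chosen with earlier results of these data known, so shares within them are descriptions and no test. Of 7 tested genes of complex II none was called under PULS or CONS, all 7 had a higher mean with CORT under PULS (median 0.16) and 2 under CONS (median -0.05). The 30 tested assembly factors outside the prefixes had a median log2 difference of 0.11 under PULS (20 higher) and 0.07 under CONS (16 higher). For PULS VEH against CONS VEH their median was -0.08 (13 higher). Of these 30, 1 was called under CONS, beside 4.45% of all genes called higher and 4.75% lower. It was Cox10, which acts in making the heme of complex IV (log2 difference 0.66, SE 0.19, edgeR adjusted p = 0.0328), at 28.2, 32.6 and 26.7 CPM against 25.5, 14.1 and 14.8 CPM. The cytochrome c gene Cyct fell under CONS (-1.22, SE 0.25, edgeR adjusted p = 0.0034), at 2.64, 4.66 and 3.402 CPM against 9.47, 9.89 and 6.15 CPM, while Cycs, the cytochrome c of most tissues, differed by -0.09. The 13 protein genes of mitochondrial DNA were not analysed here.

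Several regulators of the pathway passed the threshold. Ppargc1a encodes PGC-1α, a coactivator known to drive respiratory genes and gluconeogenesis, and stood at 162.5, 148.8 and 174.8 CPM in CONS CORT, 24.1, 17.4 and 21.9 in CONS VEH, 58.5, 32.6 and 41.6 in PULS CORT and 17.7, 20.6 and 29.9 in PULS VEH. It rose by 2.93 on the log2 scale under CONS (SE 0.21, edgeR adjusted p = 1.83e-07) and by 0.98 under PULS (SE 0.21, adjusted p = 0.0122), and the responses differed by 1.95 (SE 0.29, adjusted p = 0.0324). Of 15 tested regulators, 3 rose (Ppargc1a, Ppargc1b by 1.23, Ppara by 1.5) and 1 fell (Nrip1, a corepressor, with a log2 difference of -0.77) under CONS, and 1 rose (Ppargc1a) and 1 fell (Nrip1, -0.84) under PULS. Over all genes 4.45% were called higher and 4.75% lower under CONS, and 1.79% and 2.44% under PULS. The genes for NRF1, GABPA and TFAM gave log2 differences between -0.07 and 0.09 in both patterns, none called. Other factors of the same kind differed by more under CONS, with log2 differences of 0.37 for Yy1 (edgeR adjusted p = 0.0747), -0.41 for Gabpb1, the partner of GABPA (edgeR adjusted p = 0.0533), and 0.47 for Tfb1m (edgeR adjusted p = 0.0351), the last with a change under 1.5-fold. Esrra, the gene of the estrogen-related receptor, gave 0.36 under PULS and 0.30 under CONS, neither called. Among the carriers, Slc25a25 (1.75, edgeR adjusted p = 0.00342) and Slc25a33 (1.49, edgeR adjusted p = 0.00227), which carry nucleotides into mitochondria, rose under CONS. GR regions lay within 50 kb of 5 of 16 regulators (31.3%), 8 of 31 assembly factors (25.8%), 4 of 8 carriers (50%), 1 of 3 further genes of complexes III and IV or cytochrome c (33.3%) and 0 of 8 genes of complex II, beside 16.9% of all genes. Because these lists were chosen with earlier results of these data known, the shares are no test of them.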

How the data were processed

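Per the labels and the study's methods, ChIP reads were trimmed with Trimmomatic 0.36 and RNA reads with bbduk, and both were aligned to rn6 (Rnor_6.0). The deposited ChIP values are on a log2 scale and were made by the authors with HOMER 4.9.1 and DESeq2, for pSer2 Pol2 over at most 10 kb from each start with input subtracted, and for GR over 3981 binding regions. The deposited RNA counts are raw reads per gene from STAR and featureCounts 1.6.2, and the strand setting of counting is not given in the sources used here. Members and lists were chosen with earlier results of these data known. Genes were tested where their reads summed to over 10 across the 12 libraries, with edgeR 4.0.16 (TMM, quasi-likelihood) over all 4 groups, and ChIP values with limma 3.58.1 over all 5 groups. For pSer2 Pol2 the fit and adjustment covered all 38315 rows that varied, in which positions recur. Only then was 1 region per gene, that of the highest mean, taken for counts and shares. Adjusted p-values are Benjamini-Hochberg values over all features, and a call also needs a change above 1.5-fold. All tests are two-sided. DESeq2 1.42.0, other scalings, filters and distances, and leaving out each library were alternatives. Where a group was left with 1 library, that library was assumed to vary like the other groups. Scripts were tested on simulated data. Genes named with values were those called, those with the lowest p or highest level of each complex, tissue counterparts, genes with a GR region within 50 kb and called genes of the other lists. Further genes (Ndufaf6, Ndufb9, Ndufs7, Cycs, Esrra, Nrf1, Gabpa, Gabpb1, Tfam, Tfb1m, Yy1, Atp5po) were chosen after their values were seen. The same-numbered pSer2 Pol2 libraries under CORT deviated together (r 0.155 to 0.553 over 12 pairs of libraries), so that number was taken as pairing them. It was not taken as pairing the GR or RNA libraries, where same-numbered libraries did not deviate together in this way. With 2 libraries per group, each r occurs for 2 pairs and recurs with the sign turned for unlike numbers, so the pairs are not independent. The pairing was read from these same data. The labels do not say what the number stands for. Some results are not reported here. Promoters came from RefSeq (GRCr8), matched by symbol or synonym for 78 of 92 identifiers. P-values and intervals cover the spread between libraries, and read depth sets the precision of genes such as Ndufaf4.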

Additional observations from a re-analysis of the deposited data

Results flagged for a closer look

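The response of Ppargc1a RNA differed between the patterns by 1.949 on the log2 scale (CONS minus PULS, edgeR adjusted p = 0.03235), tested as an interaction. The other results listed here are GR regions whose PULS time difference (PEAK_140 minus NADIR_180) exceeded the CONS time difference (CONS_140 minus CONS_180) in the interaction test of limma, with an adjusted p below 0.05. The excess on the log2 scale was 5.155 at Ndufa7 (4309 bases downstream of the start), 4.286 at Ndufs7 (10854 downstream), 4.206 at Ndufc2 (18889 downstream), 3.871 at Uqcrb (15800 upstream), 3.695 at Ndufb3 (20345 downstream), 3.475 at Uqcrq (23453 upstream), 3.033 at Uqcrq (7901 downstream) and 2.746 at Ndufa4l2 (22911 upstream). Such a difference was called in 43.6% of all 3981 regions.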

How the results depend on the processing

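Of the alternative counts of calls, 365 stayed within 1.5 times the reported count and 61 did not. Without a fold threshold 2 genes were called under PULS and 2 under CONS, and DESeq2 called 2 for the difference between the responses. Leaving out 1 library gave 0 to 1 calls under PULS, 0 to 3 under CONS and 0 to 3 for their difference, and in pSer2 Pol2 0 to 6 at CONS_140 against VEH, 0 to 3 for CONS_140 against CONS_180, 0 to 12 for PEAK_140 against CONS_140, 0 to 6 for the time courses and 0 elsewhere.

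With the replicate number as a block, 4 genes were called for pSer2 Pol2 at PEAK_140 against CONS_140, and the block moved no other count by over 1.5 times. In RNA and GR, where the number was not taken as pairing libraries, same-numbered libraries had mean correlations of 0.018 and 0.003.

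Quantile normalization, chosen after seeing the data, turned the pSer2 Pol2 medians of PEAK_140 against CONS_140 and of the time courses to 0.058 and 0.072. For GR, given in the order PEAK_140, NADIR_180, CONS_140 and CONS_180 against VEH, PEAK_140 against NADIR_180, CONS_180 against NADIR_180 and the time courses, centring gave 2, 0, 0, 0, 0, 0 and 0 calls with medians of -0.19, -0.24, -0.58, -0.40, -0.45, -0.56 and -0.41. Quantile normalization gave 4, 0, 2, 3, 0, 0 and 0 calls, with medians of -0.075 at CONS_140, -0.20 for PEAK_140 against NADIR_180 and -0.11 for the time courses. Both scalings by construction remove a shift shared by most regions. Within 10 kb the calls were 5, 1, 4, 3, 5, 3 and 3, and within 100 kb 53, 11, 48, 47, 46, 36 and 27, over other sets of regions. Among regions above the median level, calls were 12 at PEAK_140, 12 at CONS_140, 11 at CONS_180 and 11 for PEAK_140 against NADIR_180. With only the compared libraries in the fit, calls were 0 at NADIR_180 and 9 for CONS_180 against NADIR_180. Leaving out 1 library gave 17 to 21 calls at PEAK_140, 2 to 8 at NADIR_180, 15 to 21 at CONS_140, 15 to 18 at CONS_180, 13 to 18 for PEAK_140 against NADIR_180, 6 to 14 for CONS_180 against NADIR_180, 3 to 12 for the time courses and 0 to 1 for PEAK_140 against CONS_140. Apart from the scalings and smaller sets, the cause of these moves was not tested. Ndufaf4, with 11 to 37 reads per library, marks the depth limit of single genes.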
